A study of Mus musculus with 6 samples.

Results

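This account describes 33 genes of the cell cycle and of DNA replication in mouse astrocytes kept in primary culture. They were chosen as a list, by symbol and by known role: 12 genes of replication and of the G1/S transition (Mcm2 to Mcm7, Pcna, Rrm2, Tyms, Ccne1, Ccne2 and E2f1) and 21 genes of G2 and mitosis (Ccna2, Ccnb1, Ccnb2, Cdk1, Plk1, Aurka, Aurkb, Bub1, Bub1b, Ube2c, Cdc20, Cenpa, Cenpe, Cenpf, Birc5, Kif11, Kif20a, Nusap1, Tpx2, Top2a and Mki67). All 33 could be tested, among 20092 features in all, a feature being a gene or, where a probe had no symbol, a transcript. The chosen probe of each of the 33 was well above background on all 6 arrays.

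The question was whether blocking the kinase GSK-3, or letting it act again, is followed by a rise of proliferation transcripts. Cells from the cortex and striatum of wild-type C57BL/6J pups, 1 day old, were grown in medium with 10% fetal bovine serum. At about day 7 every culture received 5 µM cytosine arabinoside (AraC) for 2 days, an agent that blocks DNA synthesis and so removes dividing cells, and by the labels under 1% of the cells then carried the microglial protein Iba1. From day 13 in vitro, 2 control cultures were kept in medium (the protocol speaks of a matching amount of DMSO), 2 cultures were given Ro3303544, which inhibits GSK-3, at 1 µM for 48 h (Ro), and 2 were given it for 48 h and then kept for another 48 h without it (washout). Control and Ro cultures were therefore harvested at 15 days in vitro and washout cultures at 17, with no control of that age and no cultures left in Ro for as long. Nothing in the labels says that the replicates came from separate preparations, so that p-values measure the spread between these arrays, which may be technical.

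Cells that enter the cycle pass a checkpoint in G1 at which cyclin D and cyclin E kinases release E2F factors from the retinoblastoma family. E2F then drives the genes of DNA replication, among them the Mcm helicase, Pcna and the enzymes that make deoxynucleotides. Genes of G2 and mitosis follow later in the cycle. In resting cells the DREAM complex holds them down through a promoter element called CHR, and in cycling cells B-Myb and FoxM1 activate them. In mature brain most astrocytes rest, while astrocytes in serum can divide.

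Promoters are shown because 10 of the 21 G2 and mitosis genes were called lower on washout than in Ro. Windows of 300 bases, 250 before and 50 after the annotated start, were taken from RefSeq (build GRCm38.p6) and were found for 27 of the 33 genes. No window was found for Ccna2, Ccne2, Mcm4, Aurkb, Kif20a and Tpx2. Of 17 G2 and mitosis genes with a window, 13 (76.5%) held CHR letters, TTTGAA or TTCGAA on either strand, and the same 13 also held a CCAAT box on either strand. Of 10 replication and G1/S genes 2 (20.0%) held CHR letters, against 19.2% of all 32851 promoter windows. A gene was counted if any of its windows held the letters, while the background counts single windows. These shares, here and below, are therefore of unlike units. Letters of an E2F site (TTTCCCGC, TTTCGCGC, TTTGCCGC or TTTGGCGC, either strand) lay in 4 of the 10 replication and G1/S genes (40.0%), in 1 of the 17 G2 and mitosis genes (5.88%) and in 2.26% of all windows. A CCAAT box was present in 15 of 17 (88.2%) and 7 of 10 genes (70.0%), against 37.4% of all windows. The 150 bases before the start are printed for 5 genes, 5′ to 3′ on the gene's strand. Ccnb1 and Ube2c were called lower on washout under all 18 alternative settings with no minimum on fold, Mki67 and Rrm2 were called in opposite directions in Ro, and Mcm6 shows the E2F letters. Capitals mark CHR, CCAAT and E2F letters as read on the printed strand, so that ATTGG is a CCAAT box on the other strand. In Mcm6 the longest run in capitals is a pair of overlapping E2F matches.
Ccnb1 (chr13:100786487-100786636, minus strand): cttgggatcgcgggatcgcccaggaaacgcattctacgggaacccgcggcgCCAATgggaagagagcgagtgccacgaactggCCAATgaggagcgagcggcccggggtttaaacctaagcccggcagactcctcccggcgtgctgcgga
Ube2c (chr2:164769779-164769928, plus strand): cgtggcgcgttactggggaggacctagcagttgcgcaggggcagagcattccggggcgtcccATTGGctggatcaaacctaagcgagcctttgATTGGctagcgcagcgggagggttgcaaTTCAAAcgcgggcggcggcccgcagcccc
Mki67 (chr7:135716380-135716529, minus strand): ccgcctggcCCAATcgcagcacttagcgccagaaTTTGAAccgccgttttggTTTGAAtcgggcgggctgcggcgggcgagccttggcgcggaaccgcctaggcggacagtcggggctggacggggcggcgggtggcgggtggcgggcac
Rrm2 (chr12:24708104-24708253, plus strand): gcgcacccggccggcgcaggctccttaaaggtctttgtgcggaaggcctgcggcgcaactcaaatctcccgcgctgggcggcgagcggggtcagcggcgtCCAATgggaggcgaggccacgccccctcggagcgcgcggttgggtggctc
Mcm6 (chr1:128359706-128359855, minus strand): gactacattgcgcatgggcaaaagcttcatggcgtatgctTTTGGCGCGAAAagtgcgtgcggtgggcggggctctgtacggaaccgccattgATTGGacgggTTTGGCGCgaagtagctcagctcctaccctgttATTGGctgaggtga
A match is a stretch of letters and not a shown binding site. Ccnb1, for example, has no CHR letters in the printed stretch and holds 2 CCAAT boxes. Among G2 and mitosis genes called lower on washout, Ccnb2, Plk1, Aurka, Ube2c, Cdc20 and Cenpa held CHR letters. Ccnb1, Cenpe and Birc5 held none in the whole window. Among those not called, Cdk1, Bub1, Bub1b, Cenpf, Kif11, Top2a and Mki67 held them, and Nusap1 did not. A link between the letters and the calls was not tested.

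Each array gave 1 intensity per probe. Values here are log2 intensities after subtracting the array's 75th percentile, so that 0 is the level of that percentile and a difference of 1 is 2-fold. That percentile lay between 631 and 807 intensity units, 60.4% to 65.2% of probes were well above background, and no spot was saturated. Replicates correlated across features at r = 0.992 to 0.996, and precision is limited by how few arrays there are. Control and Ro arrays lay on 1 slide and washout arrays on a second one, so that slide and washout cannot be told apart. As a check of the treatment, the beta-catenin targets Sp5, Lef1 and Axin2 rose in Ro by 8.23 ± 0.076, 4.73 ± 0.21 and 4.29 ± 0.13 (log2 difference ± standard error, 2 arrays a group). Groups were compared with limma, a linear model that pools the spread across features, and a gene was called where its p, adjusted by Benjamini-Hochberg over all 20092 features, was under 0.05. With 2 arrays a side, the smallest p of an exact permutation test is 0.333. The arrays hold RNA from whole cultures, so that more cells in the cycle and more RNA in each cannot be told apart.

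In Ro cultures the proliferation transcripts moved little and not in 1 direction. Of the 33 genes 4 rose (Tyms, Ccne1, Ube2c and Mki67), 3 fell (Rrm2, E2f1 and Mcm4) and 26 were not called. These 7 calls are 21.2% of the genes, while 42.1% of all features were called in this comparison, 19.4% as higher and 22.7% as lower. The median difference of the 33 was 0.11, against 0.0038 over all features. Regardless of direction the median size was 0.19 for the 33 and 0.31 for all features. The largest difference among them, for Cenpa, was 0.53 and not called, and 30.5% of features differed by more. For all 33 genes the 95% interval lay inside a 2-fold change, its outermost bounds being -0.78 for Rrm2 and 0.94 for Cenpa. Every one of the 7 calls needed both Ro arrays. Without Ro 1, and likewise without Ro 2, none of the 33 was called, and over all features 22.5% and 24.6% were. Without control 1, 1 gene rose in place of 4. Over 18 alternative settings, Mcm4 and Rrm2 were called in 16, Tyms in 15, Ccne1 in 13, Mki67 and Ube2c in 11 and E2f1 in 10. With no filter on dim probes, Ccne1, E2f1, Mki67 and Ube2c were not called.

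**Figure D1:**
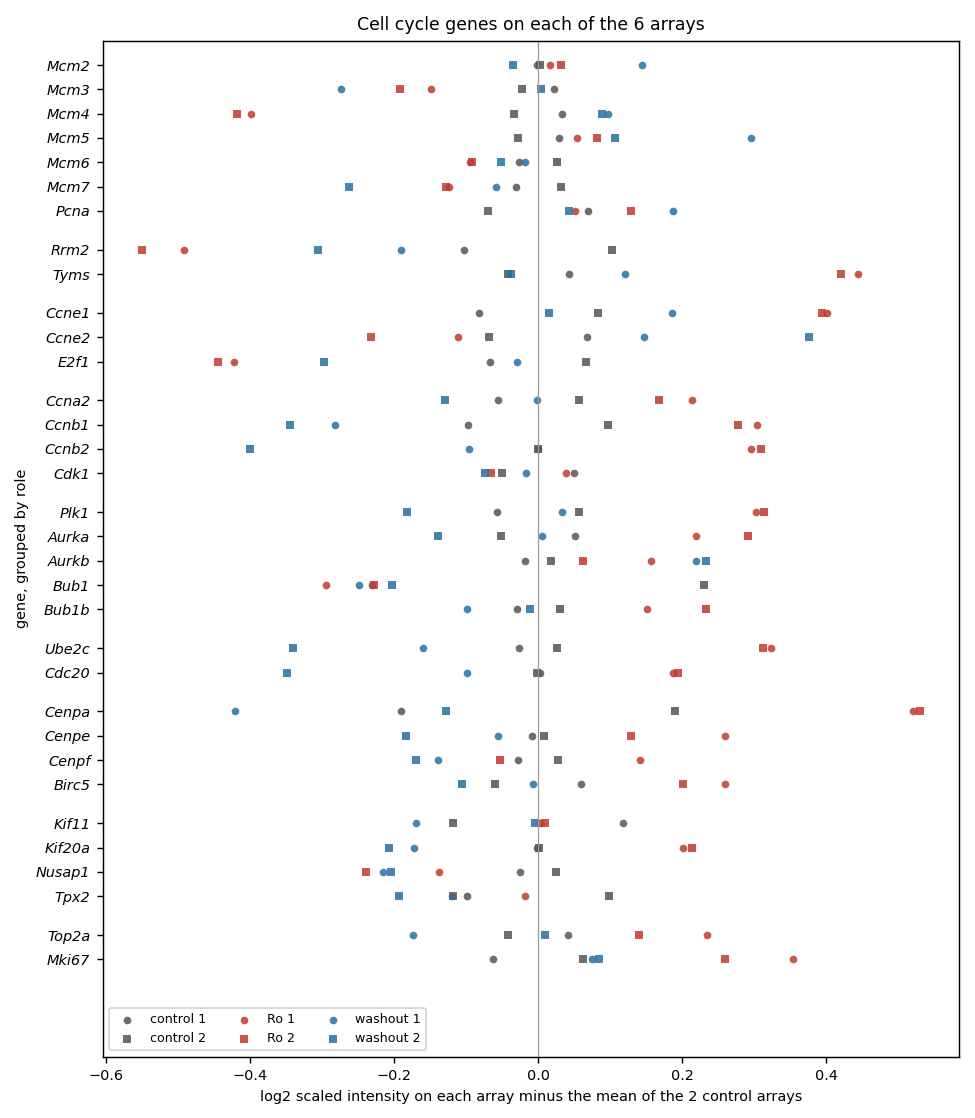
Log2 scaled intensity of the 33 genes on each of the 6 arrays, as the difference from the mean of the 2 control arrays (horizontal axis), with genes grouped by role (vertical axis). Grey marks are control, red Ro and blue washout arrays, circles replicate 1 and squares replicate 2. Both Ro arrays lie above both control arrays for 19 of the 33 genes, against 38.5% of all features, and below them for 8, against 38.8%.

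Among the replication genes, the helicase that unwinds DNA at the fork is built from Mcm2 to Mcm7. Mcm2 stood at -0.015 and -0.011 on the control arrays, 0.0029 and 0.018 on the Ro arrays and 0.13 and -0.048 on the washout arrays. These levels were almost the same in all cultures, and the difference of Ro from control was 0.024 ± 0.085 (95% interval -0.19 to 0.24). Mcm4, another subunit of the same ring, stood at 3.75 and 3.69 on the control arrays, 3.32 and 3.30 on the Ro arrays and 3.82 and 3.81 on the washout arrays. Both Ro arrays were below all the others, and Mcm4 fell by 0.41 ± 0.068 in Ro (1.33-fold lower, adjusted p = 0.00821). Mcm5 stood at 0.32 and 0.26 on the control arrays, 0.35 and 0.37 on the Ro arrays and 0.59 and 0.40 on the washout arrays. The Ro arrays lay just above the control arrays, by 0.067 ± 0.090, which did not pass the test. For Mcm3, Mcm6 and Mcm7 the differences were -0.17, -0.093 and -0.13, with no overlap between the groups' arrays and no call. Pcna, the clamp that holds the polymerase on DNA, stood at 4.34 and 4.20 on the control arrays, 4.32 and 4.40 on the Ro arrays and 4.46 and 4.31 on the washout arrays. Its groups overlapped, and the difference was 0.090 ± 0.093 (95% interval -0.15 to 0.33).

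The 2 enzymes that supply deoxynucleotides went in opposite directions. Rrm2, the regulated subunit of ribonucleotide reductase, stood at 2.28 and 2.48 on the control arrays, 1.89 and 1.83 on the Ro arrays and 2.19 and 2.07 on the washout arrays. It was lowest in Ro with no overlap and fell by 0.52 ± 0.099 (1.44-fold lower, adjusted p = 0.0127). Tyms, thymidylate synthase, stood at 1.96 and 1.87 on the control arrays, 2.36 and 2.34 on the Ro arrays and 2.04 and 1.88 on the washout arrays. It was highest in Ro with no overlap and rose by 0.43 ± 0.085 (1.35-fold, adjusted p = 0.0142), and its second probe gave 0.40. The Tyms call was also lost without control 2.

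The G1/S regulators split as well. Ccne1, cyclin E1, which starts S phase with Cdk2, stood at 1.03 and 1.19 on the control arrays, 1.51 and 1.51 on the Ro arrays and 1.30 and 1.13 on the washout arrays. It was highest in Ro, rising by 0.40 ± 0.099 (1.32-fold, adjusted p = 0.0282), while its second probe gave 0.28 and was not called. Ccne2, the related cyclin E2, which also binds Cdk2, stood at -3.28 and -3.41 on the control arrays, -3.46 and -3.58 on the Ro arrays and -3.20 and -2.97 on the washout arrays. The Ro arrays lay a little below control, at -0.17 ± 0.11 (adjusted p = 0.272), and the washout arrays were highest. E2f1, the factor that drives replication genes, stood at -0.32 and -0.18 on the control arrays, -0.67 and -0.69 on the Ro arrays and -0.28 and -0.55 on the washout arrays. It fell by 0.43 ± 0.11 in Ro (adjusted p = 0.0337), with both Ro arrays below all others, but its second probe gave -0.065 and was not called. The calls of Ccne1 and E2f1 were both lost without control 1, that of E2f1 without control 2, and that of E2f1 with the mean of its probes.

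The 21 G2 and mitosis genes were mostly a little higher in Ro. The 2 called, Ube2c and Mki67, both rose, and none fell, so that 9.52% were called against 42.1% of all features. In all, 17 of 21 differences were positive, with a median of 0.19, and in 15 of 21 both Ro arrays lay above both control arrays, against 38.5% of all features, while 1 of 21 had both below, against 38.8%. The 12 replication and G1/S genes had 2 that rose, 3 that fell and a median of -0.11. Their called share was 41.7%, close to the 42.1% of all features. The difference between the classes was not tested.

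Mki67, the antigen used to count cycling cells, stood at 2.90 and 3.03 on the control arrays, 3.32 and 3.22 on the Ro arrays and 3.04 and 3.05 on the washout arrays. Both Ro arrays were above the other 4, and Mki67 rose by 0.31 ± 0.081 (1.24-fold, 95% interval 0.10 to 0.51, adjusted p = 0.0338). The second probe of Mki67 gave 0.28 and was not called in the test of every probe. Top2a, the topoisomerase that untangles chromosomes, stood at -0.32 and -0.41 on the control arrays, -0.13 and -0.22 on the Ro arrays and -0.54 and -0.36 on the washout arrays. The Ro arrays were again highest, but the difference of 0.19 ± 0.094 was not called (adjusted p = 0.172). Cdk1, the kinase that starts mitosis, stood at 0.98 and 0.88 on the control arrays, 0.97 and 0.86 on the Ro arrays and 0.91 and 0.85 on the washout arrays. Its groups overlapped throughout, and the difference was -0.013 ± 0.080 (95% interval -0.22 to 0.19). Its partner Ccnb1, cyclin B1, stood at 0.19 and 0.38 on the control arrays, 0.59 and 0.56 on the Ro arrays and 0.0034 and -0.059 on the washout arrays. Ro was highest and washout lowest with no overlap, and the difference of Ro from control just missed the threshold (0.29 ± 0.091, adjusted p = 0.0544), while its 2 other probes gave 0.28 and 0.33 and were called in the test of every probe. Ccnb2 and Ccna2, cyclins B2 and A2, differed by 0.30 and 0.19, without a call.

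Ube2c and Cdc20 serve the ubiquitin ligase that ends mitosis. Ube2c stood at 1.35 and 1.41 on the control arrays, 1.71 and 1.69 on the Ro arrays and 1.22 and 1.04 on the washout arrays. It was highest in Ro and rose by 0.32 ± 0.087 (1.25-fold, adjusted p = 0.0379). Cdc20 differed by 0.19 ± 0.10 (adjusted p = 0.19). The calls of Mki67 and Ube2c were each lost without control 1 and without control 2, and that of Mki67 when probes of a gene were averaged. Cenpa, the histone that marks centromeres, stood at 0.027 and 0.41 on the control arrays, 0.74 and 0.75 on the Ro arrays and -0.20 and 0.089 on the washout arrays. Both Ro arrays were above all others, but the control arrays lay far apart and the difference of 0.53 ± 0.16 was not called (adjusted p = 0.0538). Cenpe, a kinetochore motor, differed by 0.19, Cenpf by 0.044 and Birc5, which encodes survivin of the chromosomal passenger complex, by 0.23. The mitotic kinases Plk1, Aurka and Aurkb differed by 0.31, 0.26 and 0.11, and the checkpoint kinase Bub1b by 0.19, none of them called. Aurkb stood at -0.80 and -0.77 on the control arrays, -0.63 and -0.72 on the Ro arrays and -0.56 and -0.55 on the washout arrays, lowest in control and highest on washout. For Bub1, the other checkpoint kinase, the chosen probe gave -0.26 and the second probe 0.19. Of the spindle genes, the motor Kif20a differed by 0.21, Nusap1, which binds spindle microtubules, by -0.19, Tpx2, which activates Aurora A, by -0.068 and the motor Kif11 by 0.0055, and none was called.

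**Figure D2:**
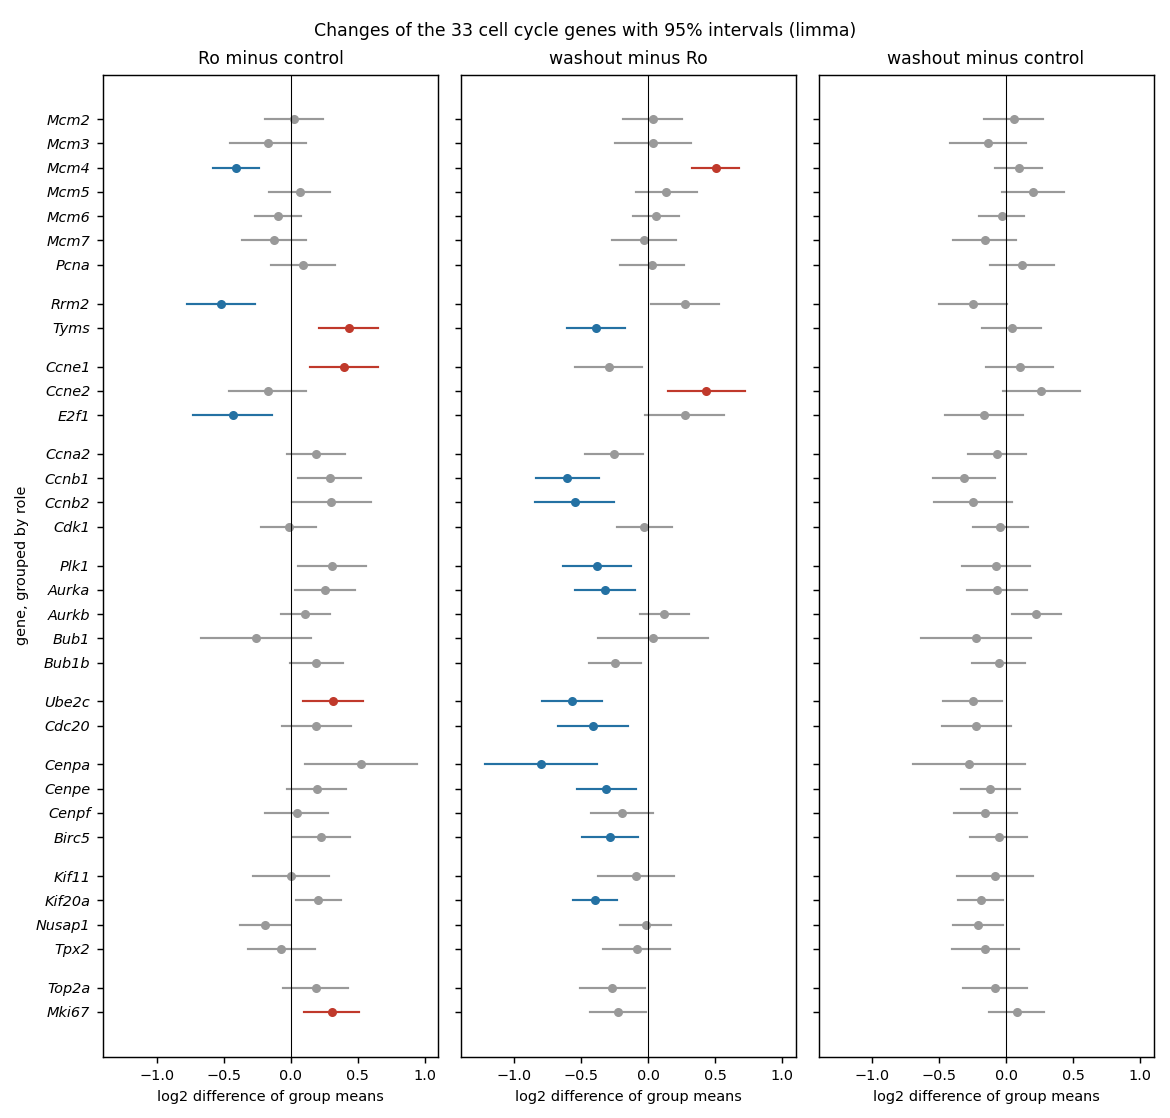
Differences between group means of log2 values (horizontal axis) with 95% intervals from limma, for the 33 genes (vertical axis), in a panel for each of 3 comparisons. Red marks were called higher, blue marks called lower and grey marks not called: 7 are coloured for Ro minus control, 13 for washout minus Ro and 0 for washout minus control.

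After the inhibitor was removed, 10 of the 21 G2 and mitosis genes were called lower than in Ro, and 11 were not called. Washout also differed from Ro in slide and in age at harvest (17 against 15 days in vitro). These cannot be told apart from removal. Compared with Ro, 11 of the 33 were lower on washout (Ccnb1, Ccnb2, Plk1, Aurka, Ube2c, Cdc20, Cenpa, Cenpe, Birc5, Kif20a and Tyms) and 2 were higher (Mcm4 and Ccne2). These 13 calls are 39.4% of the genes, close to the 41.5% of all features called, of which 21.4% were higher and 20.1% lower. The median difference of the 33 was -0.20, against -0.020 over all features. In 19 of 33 both washout arrays lay below both Ro arrays, against 38.2% of all features, and in 7 they lay above, against 36.2%. This comparison uses the same Ro arrays as the one before it, so that the values of both are given side by side and not as separate evidence.

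Of the 21 G2 and mitosis genes 10 fell, none rose, and the median was -0.27. The share called, 47.6%, stands against 41.5% of all features in either direction and 20.1% as lower. Ccnb1 fell by 0.60 ± 0.091 on the log2 scale (1.52-fold lower, adjusted p = 0.00588), after a difference of 0.29 between Ro and control, and its 2 other probes gave -0.27 and -0.49. Ccnb2 fell by 0.55 ± 0.12 (adjusted p = 0.0165). Ube2c fell by 0.57 ± 0.087 (1.48-fold lower, adjusted p = 0.0063) and Cdc20 by 0.41 ± 0.10 (adjusted p = 0.0268), so that both genes of the mitotic exit ligase were called. Cenpa fell by 0.80 ± 0.16 (1.74-fold lower, adjusted p = 0.0154), the largest difference among the 33 in any comparison, and 17.6% of features differed by more. Smaller falls were those of Kif20a at -0.40, Plk1 at -0.38, Aurka at -0.32, Cenpe at -0.31 and Birc5 at -0.29. Dim spots were raised in parts of washout 1 (4.69% of spots) and washout 2 (1.15%), where the chosen probes of Birc5, Cdk1 and Pcna lie. The Birc5 call held in 5 of 17 settings. Of 18 settings, Aurka and Cenpe were called in 8, Plk1 in 9, Cdc20 in 11, Ccnb2 and Cenpa in 15 and Kif20a in 16.

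Mki67 and Top2a were not called on washout, at -0.23 ± 0.081 (adjusted p = 0.0777) and -0.27 ± 0.094 (adjusted p = 0.0747). Ccna2 (-0.26), Bub1b (-0.25) and Cenpf (-0.20) also lay lower on washout without a call. Cdk1 (-0.032), Nusap1 (-0.021), Tpx2 (-0.088), Kif11 (-0.092) and Aurkb (0.12) differed less. Bub1 gave 0.035 on the chosen probe, and -0.32 on a second probe that was called and lies in the raised part of washout 1. Cenpe was called on its chosen probe alone, while its other probes gave 0.13 and -0.70.

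The 12 replication and G1/S genes had a median of 0.047, and 25% were called, against 41.5% of all features. Mcm4 rose by 0.50 ± 0.068 (1.42-fold, adjusted p = 0.00419), after falling by 0.41 ± 0.068 in Ro. Ccne2 rose by 0.43 ± 0.11 (adjusted p = 0.0315), a call made in 9 of 18 settings, and Tyms fell by 0.39 ± 0.085 (adjusted p = 0.019), called in 14. Rrm2 (0.27 ± 0.099, adjusted p = 0.082), E2f1 (0.27 ± 0.11, adjusted p = 0.118) and Ccne1 (-0.30 ± 0.099, adjusted p = 0.0645) did not pass. The second probe of Ccne1 gave -0.41 and was called in the test of every probe. The other licensing and fork genes lay between -0.034 (Mcm7) and 0.13 (Mcm5), with Mcm2 at 0.031, Mcm3 at 0.036, Mcm6 at 0.059 and Pcna at 0.026.

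Ccnb1, Ube2c and Mcm4 were the genes called in this comparison under all 18 alternative settings of the test of genes, with no minimum on fold. Without Ro 1, and likewise without Ro 2, 2 genes fell and 1 rose. Without control 1, control 2 or washout 2, 6 fell in each case. No call of either comparison changed direction under any setting. With the 4 compared arrays alone, 6 of the 33 fell on washout.

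**Figure D3:**
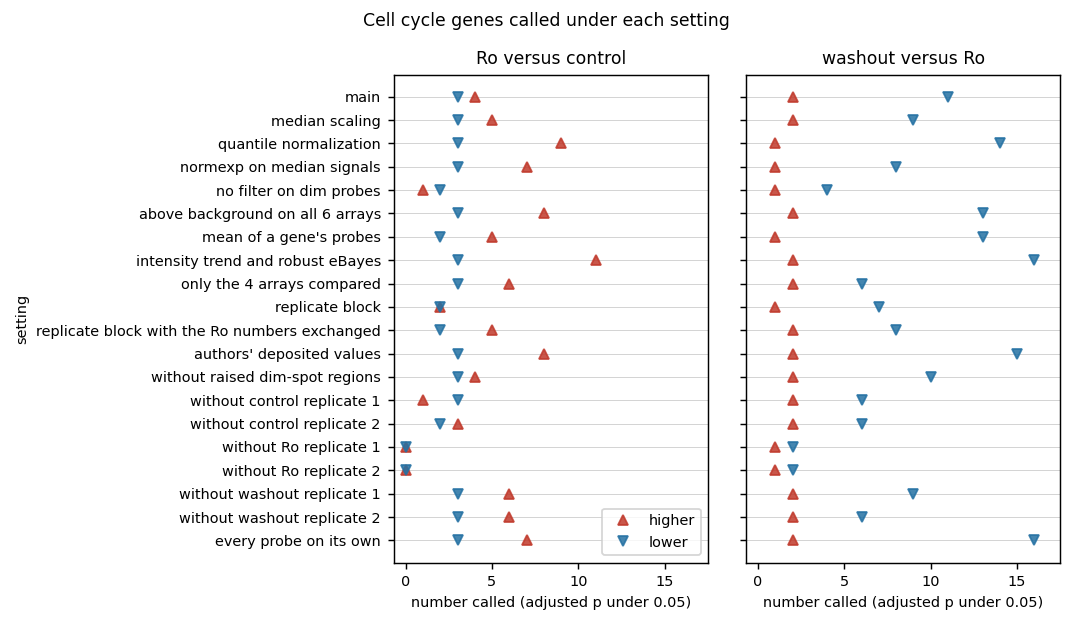
Number of the 33 genes called higher (red, pointing up) and lower (blue, pointing down) in 2 comparisons (horizontal axis) under the main setting and each alternative (vertical axis). The bottom line counts probes, not genes. Calls in Ro versus control disappear without either Ro array, while calls lower on washout range from 2 to 16 over the settings drawn. A minimum of 2-fold, which is not drawn, gave 0 in both comparisons.

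At 48 h after removal, none of the 33 genes was called different from control by limma. At an unadjusted limma p under 0.05 there were 5: Ccnb1, Ube2c, Kif20a and Nusap1 lower, and Aurkb higher. The share of all features under that unadjusted threshold was not counted, so that these 5 have no background to stand against. By adjusted p, 10.1% of all features were called, 4.12% as higher and 5.95% as lower. The median difference was -0.082, against -0.011 over all features. Both washout arrays were below both control arrays for 11 genes, against 29.4% of all features, and above for 5, against 26.8%. Ccnb1 differed by -0.31 ± 0.091 (adjusted p = 0.0999), but its other probes gave 0.010 and -0.15. Under an intensity trend with robust variances its adjusted p was 0.0427, the one call in any of the 18 settings. Ube2c differed by -0.25 ± 0.087 and Cenpa by -0.27 ± 0.16. The largest positive differences were those of Ccne2 (0.26 ± 0.11), Aurkb (0.23 ± 0.072) and Mcm5 (0.20 ± 0.090). Mki67 was at 0.079 ± 0.081 (95% interval -0.13 to 0.29), Top2a at -0.082 ± 0.094 (-0.32 to 0.16), Mcm2 at 0.055 ± 0.085 (-0.16 to 0.27), Pcna at 0.12 ± 0.093 (-0.12 to 0.35) and Cdk1 at -0.045 ± 0.080 (-0.25 to 0.16). All 33 intervals lay inside a 2-fold change, from -0.69 for Cenpa to 0.55 for Ccne2. No gene of the 33 reached a 2-fold called change in any comparison, against 11.3% of features for Ro and control, 11.5% for washout and Ro and 2.17% for washout and control. The bounds above are the precision of the design, and a missing call does not show equal levels.

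Other genes of both phases were counted in wider lists. Of 48 other S phase genes tested, 4 rose and 6 fell in Ro (median -0.00073), and 14 rose and 2 fell on washout compared with Ro (median 0.10). These calls are 20.8% of the list in Ro, against 42.1% of all features, and 33.3% on washout, against 41.5%. In Ro, Exo1, a repair nuclease, rose by 0.54 ± 0.076, the kinase subunit Dbf4 by 0.41 ± 0.083 and its kinase Cdc7 by 0.34 ± 0.090, while the helicase Mcm8 fell by 0.66 ± 0.075. On washout the loading factor Cdc6 (0.65 ± 0.095), the clamp loader subunit Rfc3 (0.64 ± 0.13) and Rpa2 of the single-strand binding complex (0.55 ± 0.079) rose, and Dbf4 fell by 0.66 ± 0.083. Cdc6 was also the 1 gene of this list called higher on washout than in control (0.73 ± 0.095, adjusted p = 0.0184). That is 2.08% of the list, against 4.12% of all features called higher. This Cdc6 call was lost with no filter on dim probes and without control 1, control 2 or washout 1. Without control 1, control 2, Ro 1 or Ro 2, 1 or 2 of the 48 rose and 1 fell in Ro. The Cdc7 call was lost when any 1 array was left out, that of Dbf4 in Ro without control 2, Ro 1 or Ro 2, and that of Rfc3 without Ro 1 or Ro 2. Without Ro 1, Ro 2 or washout 1, 4, 2 and 5 rose on washout compared with Ro.

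Of 48 other G2 and mitosis genes, 4 rose and 6 fell in Ro (median 0.066), and 1 rose and 18 fell on washout compared with Ro (median -0.25). The called share was 20.8% in Ro, against 42.1% of all features, and 39.6% on washout, close to the 41.5% of all features. In Ro the phosphatase Cdc25b (0.38 ± 0.068) and the cohesin protector Sgo1 (0.49 ± 0.070) rose, and the cytokinesis gene Anln and the securin gene Pttg1 fell by 0.67 ± 0.15 and 0.49 ± 0.10. On washout Cdc25b fell by 0.67 ± 0.068, the motor Kif2c by 0.61 ± 0.068, Sgo1 by 0.49 ± 0.070 and Foxm1, the activator of this gene class, by 0.38 ± 0.073. Against control 4 of the 48 were lower on washout and 0 higher. That is 8.33% of the list, against 10.1% of all features called and 5.95% called lower. The 4 were Kif2c at -0.44 (adjusted p = 0.026), Foxm1 at -0.39 (adjusted p = 0.0383), Mastl at -0.39 and Nek2 at -0.35. Mastl and Nek2 are named after their values were seen. Leaving out any 1 array ended the calls of all 4 against control. The rise of Cdc25b was lost without control 1, Ro 1 or Ro 2, the fall of Anln without control 1, control 2 or Ro 2, that of Pttg1 without control 1, Ro 1 or Ro 2, and the fall of Foxm1 without Ro 1 or Ro 2. Without control 1, control 2, Ro 1 or Ro 2, 1 or 2 of the 48 rose and 0 to 2 fell in Ro. Without Ro 1, Ro 2, washout 1 or washout 2, 3, 4, 9 and 9 fell on washout compared with Ro.

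**Figure D4:**
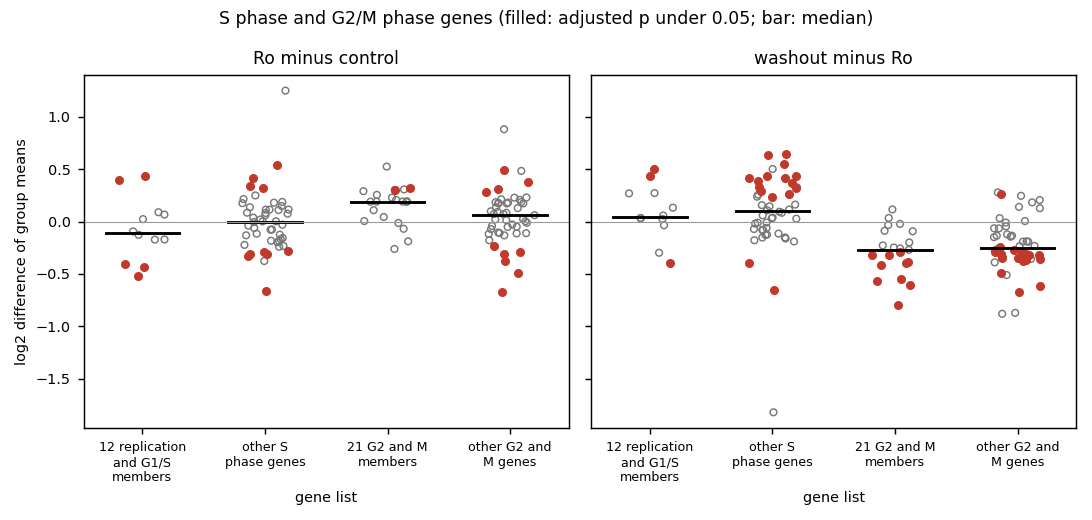
Log2 differences (vertical axis) of single genes in 4 lists (horizontal axis), for Ro minus control (left) and washout minus Ro (right). Filled red circles passed the test, open circles did not, and bars are list medians; in the right panel the medians of both G2 and M lists lie at -0.27 and -0.25, below those of the replication and S phase lists at 0.047 and 0.10.

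Some regulators that act before S phase gave differences larger than any of the 33 genes. All 7 tested genes among G1 cyclins, their kinases and Myc were called in Ro, 3 higher and 4 lower, where 42.1% of all features were called, and Ccnd1 and Cdk2 were not tested. Mycn rose by 1.41 ± 0.076, the cyclin D kinase Cdk4 by 0.74 ± 0.080 and the phosphatase Cdc25a by 0.70 ± 0.12, while the growth regulator Myc fell by 1.16 ± 0.092 and the cyclin D genes Ccnd2 and Ccnd3 and their kinase Cdk6 fell, at -0.42, -0.48 and -0.58. The calls of Mycn and Cdk6 were lost with the mean of their probes. That of Cdc25a was lost with normexp on median signals and without Ro 1. Over 18 settings the Cdc25a difference lay between 0.12 and 0.85. The Ccnd2 call was lost with no filter on dim probes and without control 2, Ro 1 or Ro 2. That of Ccnd3 was lost with no such filter, with the replicate number as a block, and without control 1, control 2 or Ro 1. Of 7 genes for inhibitors of cyclin-dependent kinases 4 rose and 2 fell in Ro (85.7% called, against the same 42.1%). Those that rose were Cdkn1c (p57) by 1.30 ± 0.15, Cdkn2a (p16 and p19Arf) by 0.85 ± 0.20, Cdkn1a (p21) by 0.62 ± 0.073 and Cdkn2b (p15) by 0.54 ± 0.093. The Cdkn2a call was lost without control 1, control 2, Ro 1 or Ro 2, and that of Cdkn2b without Ro 2. Cdkn1b (p27) fell by 0.34 ± 0.081 (adjusted p = 0.0246) and Cdkn2d (p19Ink4d) by 0.41 ± 0.086 (adjusted p = 0.0169), both named after their values were seen. Both of these calls were lost without control 1, Ro 1 or Ro 2, and that of Cdkn2d also without control 2. Cdkn2c (p18) differed by -0.012 and was not called. Cdkn1a stood at 2.88 and 2.97 on the control arrays, 3.52 and 3.57 on the Ro arrays and 2.77 and 2.71 on the washout arrays. Its Ro arrays were far above the others. On washout compared with Ro, Cdkn1c, Cdkn2a, Cdkn1a and Cdkn2b fell, by 0.53 ± 0.15, 1.32 ± 0.20, 0.80 ± 0.073 and 0.60 ± 0.093, the other 3 inhibitors were not called, and Myc rose by 1.64 ± 0.092 while Mycn fell by 1.02 ± 0.076. Against control, Myc (0.48 ± 0.092, adjusted p = 0.0407), Mycn (0.39 ± 0.076, adjusted p = 0.0427) and Cdkn1c (0.77 ± 0.15, adjusted p = 0.0411) were higher on washout, Mycn and Cdkn1c after a rise in Ro and Myc after a fall. All 3 calls were lost when any 1 of the 6 arrays was left out, and the mean of its probes put Mycn at -0.078. Of 17 genes of the Rb family, other E2F factors and the DREAM complex, 4 rose and 2 fell in Ro (35.3%, against 42.1% of all features), and 3 rose and 4 fell on washout compared with Ro (41.2%, against 41.5%). E2f3 rose by 0.38 ± 0.072 in Ro, where the DREAM subunit Lin52 and the repressor E2f8 fell by 0.57 ± 0.075 and 0.40 ± 0.11. Rb1 has no settled direction: its chosen probe gave 0.38 ± 0.074, and without parts of the slides with raised dim spots another probe gave -0.38, both called. The calls of E2f3 and E2f8 in Ro were lost without control 1, Ro 1 or Ro 2, that of E2f8 also without control 2 and under several scalings. On washout E2f8 (0.70 ± 0.11), Lin52 (0.58 ± 0.075) and E2f7 (0.41 ± 0.10) rose and E2f3 fell by 0.47 ± 0.072. Of these, E2f7 was lost without Ro 1, Ro 2 or washout 1, and E2f3 with the mean of its probes. The fall of Cdkn1c on washout was lost without any of control 1, control 2, Ro 2, washout 1 and washout 2.

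**Figure D5:**
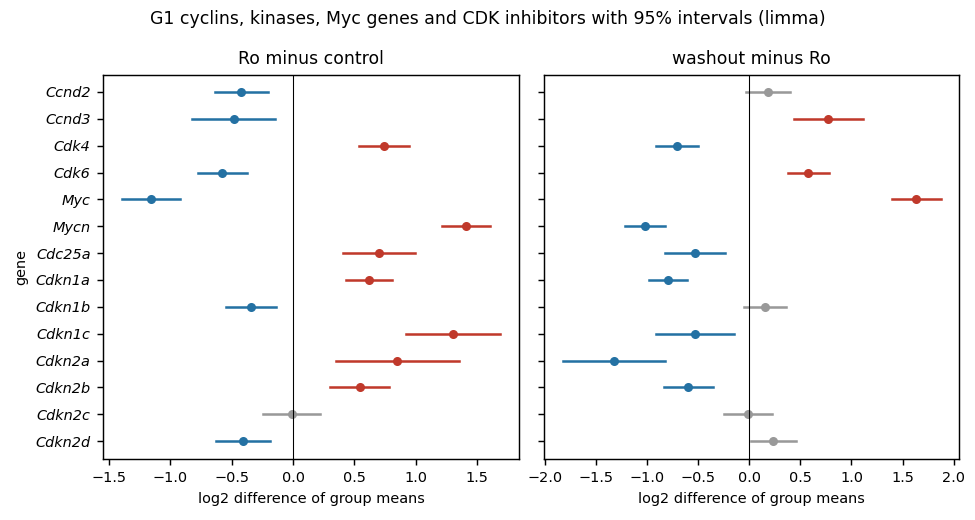
Log2 differences (horizontal axis) with 95% intervals from limma for 7 G1 regulators and 7 CDK inhibitors (vertical axis), for Ro minus control and washout minus Ro. Red marks were called higher, blue lower and grey not called: Cdkn1a, Cdkn1c, Cdkn2a and Cdkn2b lie above 0 in the left panel and below 0 in the right, and Cdkn1b and Cdkn2d are blue in the left.

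Markers of several cell types moved with the same groups. Their counts stand against 42.1% of all features called in Ro (19.4% higher, 22.7% lower), 41.5% on washout compared with Ro (21.4% higher) and 5.95% called lower on washout than in control. All 10 astrocyte markers were well above background on all 6 arrays, and in Ro 2 rose and 6 fell. Of 9 tested microglia markers 5 fell and 1 rose in Ro, with a mean level of -1.12 and -1.20 on the control arrays, -2.03 and -1.84 on the Ro arrays and about -1.30 on washout, and P2ry12 was above background on no array. All 5 tested ependymal markers fell in Ro, from a mean of 2.52 to 2.62 in control to 0.83 to 1.03. Of 5 oligodendrocyte precursor markers 3 fell and 1 rose, from 0.11 to 0.20 in control to -0.91 to -0.87, and Gpr17 was above background on no array. Of 9 meningeal fibroblast markers 6 fell and 2 rose, from 0.52 to 0.73 in control to about -0.10, and they lay at -0.50 to -0.46 on washout, where 7 were called lower than in control. Of 6 pericyte and smooth muscle markers 4 fell and 1 rose, and Abcc9 and Des were above background on no array. Of 6 neural progenitor markers 2 fell and 1 rose, and of 5 neuron and neuroblast markers 4 fell. Of 5 oligodendrocyte markers 1 rose, 1 fell and 3 were not called, with a mean of -1.39 to -1.38 in control and -1.61 to -1.42 in Ro. Among these marker lists the endothelial one alone had a higher mean level in Ro, 0.22 and 0.23 after -1.17 and -1.10 in control, and it lay at -0.99 and -0.85 on washout. Only 2 of its 6 genes were tested, and they are named after their values were seen: Kdr, a VEGF receptor, rose by 3.10 ± 0.10 (adjusted p = 0.000131) and Flt1, another, fell by 0.38 ± 0.11 (adjusted p = 0.0393), a call lost when any 1 array was left out. Pecam1, a defining endothelial marker, was above background on no array. On washout compared with Ro, where 20.1% of all features were called lower, 7 of 9 microglia markers rose and 1 fell. All 5 ependymal markers rose. Astrocyte markers showed 6 rises and 2 falls among 10, and oligodendrocyte precursor markers 3 rises and 1 fall among 5. Pericyte and smooth muscle markers had 3 rises and 1 fall among 6, and neuron and neuroblast markers 3 rises among 5. Meningeal fibroblast markers had 1 rise and 5 falls among 9, and neural progenitor markers 2 of each among 6. Among 5 oligodendrocyte markers 1 rose, and among 2 endothelial markers 1 fell. The part of these cells in the values of the 33 genes was not tested.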

How the data were processed

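RNA of 6 astrocyte cultures was labelled with Cy3 and hybridised to 1-colour Agilent arrays, per the labels. The authors read the scans with Agilent Feature Extraction (10.1 per the submitters' processing notes, 10.5.1.1 per the file headers). The deposited files hold a processed intensity per spot on a linear scale, background-corrected array by array and unscaled across them. A deposited table with all samples gives a ratio per probe, whose centring is not given in the sources used here, and it served as an alternative. Its log2 values followed those of the processed intensity, with r between 0.9949 and 0.9973 over the arrays.

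Of 41174 non-control probes, 106 with outlier spots were left out, and 26475 were kept because Feature Extraction marked them well above background on 2 of 2 arrays in some group. Probes were named by accession through a RefSeq table, which gave 25097 probes a symbol. The log2 intensity was reduced by the array's 75th percentile, and the probe with the highest mean stood for a gene. The 33 genes had 47 probes, of which 45 were kept, and 12 genes had several.

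Group means were tested in limma 3.58.1 (R 4.3.3; lmFit with 1 mean per group over all 6 arrays, eBayes, two-sided, 3 residual and 2.09 prior degrees of freedom), with Benjamini-Hochberg adjustment over 20092 features. The procedure was tested on simulated data. Values on all 6 arrays are given for Mki67, Top2a, Cdk1, Ccnb1, Mcm2 and Pcna and for the 3 largest rises and 3 largest falls in each comparison. Up to 4 genes of each other list are named by the size of their called change. The genes and lists were chosen with earlier results of these data known. Alternatives changed scaling, background, filter, probe choice, variance model, arrays in the fit and pairing, and left out each array. Deviations of same-numbered arrays from their group means correlated at -0.12, 0.078 and -0.11. With 2 arrays a group, these values cannot show whether same-numbered cultures shared a preparation. The main fit left the replicates unpaired, and the replicate number as a block was an alternative. Promoter letters were searched with Python 3.11.15, and figures drawn with matplotlib 3.10.9.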

Additional observations from a re-analysis of the deposited data

How the results depend on the processing

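Every call among the 33 genes kept its direction under all 18 settings, while the counts moved. Outside them, Rb1 in Ro turned from 0.38 to -0.38 without parts with raised dim spots, and Mycn in washout compared with control from 0.39 to -0.078 when probes of a gene were averaged, each time through other probes. In Ro compared with control, 4 genes higher became 9 with quantile normalization, 7 with normexp on median signals, 1 with no filter on dim probes, 8 with probes above background on all 6 arrays, 11 with an intensity trend and robust variances and 8 with the authors' values. With every probe tested on its own, 7 probes of 5 genes were higher. Leaving out single arrays gave 0 to 6 higher and 0 to 3 lower. In washout compared with Ro, 2 genes higher became 1 with quantile normalization, normexp, no filter or the mean of a gene's probes, and 11 lower became 4 with no filter and 6 with only the 4 arrays compared. Leaving out single arrays gave 1 to 2 higher and 2 to 9 lower. At a minimum of 2-fold, 0 of the 33 were called in each comparison. In washout compared with control the trend setting gave 1 lower, and every other setting 0. With no filter 17.8% of all features were called in Ro compared with control, against 42.1%. The causes of the changed counts were not tested.

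With the replicate number as a block, 2 rose and 2 fell in Ro, 1 rose and 7 fell on washout compared with Ro, and 0 were called in washout compared with control. With the Ro numbers exchanged in the block, the counts were 5 and 2, 2 and 8, and 0.

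A fit without spots of raised local background was not run, since no spot met that rule. Versions that left out parts with raised dim spots, tested every probe or exchanged the Ro numbers were chosen after seeing the data. With 2 arrays a group the standard errors of the 33 genes were 0.065 to 0.16 in log2 units. A call needed a difference well beyond its standard error. The smallest called was that of Birc5 on washout compared with Ro (-0.29 ± 0.082). In Ro compared with control, Cenpa at 0.53 ± 0.16 was not called.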
